A study of Mus musculus with 6 samples.

Results

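Immunoglobulin V segments were followed in the B cells of lymph nodes from pregnant mice. The members were all gene symbols of the deposited matrix that begin with Ighv (heavy chain, 70 symbols), Igkv (kappa light chain, 80 symbols) or Iglv (lambda light chain, 3 symbols), which made 153 of 14125 genes. They were read in the 2267 distinct cells that the deposited cell table names B cells, of 7300 distinct lymph node cells in all. The mice were 4 Aire-DTR dams and 3 WT dams. Aire-DTR mice carry the diphtheria toxin receptor in cells that express Aire, so that diphtheria toxin (DT) removes those cells. All 7 dams had been mated with BALB/c males and had received DT over the first 9 days of pregnancy, the WT dams included, and were sampled at embryonic day 9.5. The labels give neither the age nor the strain background of the dams. The uterine-draining node (udLN) and the brachial node (brLN) of each dam were sampled. The cell table lists intrauterine growth restriction (IUGR) for 3 Aire-DTR dams (mice 7, 8 and 36) and resorption for 1 (mouse 4). Droplet single-cell RNA sequencing was run on 3 hashtagged pools of 2 wells each: pool 1 held mice 8 (Aire-DTR) and 6 (WT), pool 2 held mice 36 (Aire-DTR) and 97 (WT), and pool LN held mice 4 and 7 (Aire-DTR) and 1 (WT).

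A B cell assembles its antigen receptor by joining a heavy chain V segment to D and J segments, and a kappa or lambda V segment to a J segment. The joined V region is transcribed together with a constant region, Ighm or Ighd in a naive cell, and a promoter just upstream of the V segment is driven by enhancers that the joining brings near. Most B cells keep a single productive heavy chain and a single productive light chain, a rule known as allelic and isotypic exclusion, so that the V symbol seen in a cell marks its clone's receptor. Mouse B cells are mostly kappa-positive. Plasma cells, which secrete antibody, carry far more immunoglobulin RNA than naive B cells.

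A fault in the deposited matrix bears on every value. The cells of pool LN well 1 were present in duplicate, with the same barcodes, labels and counts under a different barcode ending: 2127 of 9427 rows (22.6%) were copies, and 582 of the 2849 rows named B cells. Each cell was counted once here. With both copies kept, B cells held 1.17% V segment UMIs (unique molecular identifiers, the counted RNA molecules) in place of 1.19%, 98.5% of B cells held a V UMI either way, and the number of cells with 100 or more V UMIs was 11 in place of 9. The share of a most used symbol moved by at most 0.448 percentage points (Iglv3, of all Iglv UMIs). Apart from the copies, 214 barcodes occurred in more than 1 well over the 15 pairs of wells, of which 9 were of the same mouse and node and 62 of the same cell type. B cells per mouse and node numbered between 20 (udLN of WT mouse 97) and 357 (brLN of Aire-DTR mouse 36), with a median of 2261 UMIs per B cell. The labels name a CD45+ CD3+ sort in one place and a CD45+ sort in another, and a 3′ library kit beside hashtags of the TotalSeq-C type. In B cells Igkv UMIs were 8.58 times as many as UMIs of Igkc, the kappa constant gene, and Ighv UMIs were 1.14 times as many as those of Ighm and Ighd together.

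The germline coding sequences of the 8 symbols that the results turn on are printed from GENCODE M21 transcripts (GRCm38), bases 1 to 300 of each, with the genomic span of the whole gene. For the first 6, capitals mark the first exon, which encodes most of the leader peptide, and the rest is the V exon. Igkv1-117 (chr6:68121046-68121827, plus strand) held the largest mean share of Igkv UMIs, Igkv10-96 (chr6:68631963-68632442, minus strand) occurred in the most B cells of any Igkv symbol, and Ighv1-26 (chr12:114788372-114788805, minus strand) was the same for Ighv. Igkv6-15 (chr6:70406469-70406992, minus strand) and Igkv4-55 (chr6:69607275-69607828, minus strand) were the genes called between nodes in the main fit. Of 15 alternative settings, 2 lost the call of Igkv6-15 and 8 that of Igkv4-55. Iglv3 (chr16:19241207-19241690, minus strand) had 55.7% identity to its nearest member.
Igkv1-117: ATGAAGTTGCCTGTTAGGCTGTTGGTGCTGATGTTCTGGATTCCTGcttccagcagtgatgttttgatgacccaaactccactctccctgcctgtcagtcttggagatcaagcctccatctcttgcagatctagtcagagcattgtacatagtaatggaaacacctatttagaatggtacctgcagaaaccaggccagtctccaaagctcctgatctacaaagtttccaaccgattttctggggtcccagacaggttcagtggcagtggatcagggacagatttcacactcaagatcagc
Igkv10-96: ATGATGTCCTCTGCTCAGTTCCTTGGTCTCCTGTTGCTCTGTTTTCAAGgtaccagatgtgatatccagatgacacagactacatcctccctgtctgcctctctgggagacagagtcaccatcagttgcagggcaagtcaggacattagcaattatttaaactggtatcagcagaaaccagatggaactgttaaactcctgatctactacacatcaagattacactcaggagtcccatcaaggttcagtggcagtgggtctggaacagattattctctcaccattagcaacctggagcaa
Igkv6-15: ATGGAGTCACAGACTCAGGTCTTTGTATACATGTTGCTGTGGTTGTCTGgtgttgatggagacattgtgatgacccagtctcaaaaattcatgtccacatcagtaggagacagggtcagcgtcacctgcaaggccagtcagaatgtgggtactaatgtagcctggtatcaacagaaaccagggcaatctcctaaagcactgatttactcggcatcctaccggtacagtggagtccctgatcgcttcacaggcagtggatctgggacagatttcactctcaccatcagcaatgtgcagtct
Igkv4-55: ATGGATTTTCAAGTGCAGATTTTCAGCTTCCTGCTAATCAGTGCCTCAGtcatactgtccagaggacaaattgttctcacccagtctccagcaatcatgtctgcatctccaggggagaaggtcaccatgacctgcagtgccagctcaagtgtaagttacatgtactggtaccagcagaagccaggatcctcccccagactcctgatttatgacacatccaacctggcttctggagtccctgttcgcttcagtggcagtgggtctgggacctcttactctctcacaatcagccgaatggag
Ighv1-26: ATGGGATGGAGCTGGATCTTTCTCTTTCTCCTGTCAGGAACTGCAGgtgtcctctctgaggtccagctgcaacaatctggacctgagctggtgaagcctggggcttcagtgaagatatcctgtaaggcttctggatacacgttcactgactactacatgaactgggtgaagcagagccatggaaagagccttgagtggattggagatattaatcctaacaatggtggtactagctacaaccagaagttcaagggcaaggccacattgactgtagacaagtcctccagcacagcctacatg
Iglv3: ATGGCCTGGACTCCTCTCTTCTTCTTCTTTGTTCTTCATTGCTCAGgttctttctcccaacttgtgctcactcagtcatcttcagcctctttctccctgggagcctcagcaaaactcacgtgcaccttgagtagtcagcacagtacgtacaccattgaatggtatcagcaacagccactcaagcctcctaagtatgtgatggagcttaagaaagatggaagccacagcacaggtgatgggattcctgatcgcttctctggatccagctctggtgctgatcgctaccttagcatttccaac
Iglv1 (chr16:19085017-19085500, minus strand) and Iglv2 (chr16:19260401-19260859, minus strand) were 96.9% identical, and in these sequences capitals mark the bases at which the pair differ, 8 of their 11 differences in all.
Iglv1: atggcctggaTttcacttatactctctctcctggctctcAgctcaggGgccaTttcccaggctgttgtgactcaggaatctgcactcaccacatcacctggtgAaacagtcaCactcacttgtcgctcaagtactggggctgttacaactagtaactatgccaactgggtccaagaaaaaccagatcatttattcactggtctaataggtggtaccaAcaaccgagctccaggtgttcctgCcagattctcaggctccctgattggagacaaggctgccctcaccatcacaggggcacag
Iglv2: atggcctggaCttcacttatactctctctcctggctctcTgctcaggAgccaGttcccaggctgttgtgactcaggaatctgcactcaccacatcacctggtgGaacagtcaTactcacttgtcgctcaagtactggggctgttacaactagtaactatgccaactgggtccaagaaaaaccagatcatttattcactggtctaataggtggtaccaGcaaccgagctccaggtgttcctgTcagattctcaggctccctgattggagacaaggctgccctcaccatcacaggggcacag
All 153 symbols matched GENCODE M21, 149 as V genes and 4 as V pseudogenes. Coding sequences of the 149 ran from 338 to 370 bases, and 65 of the 149 had another member at 95% identity or more, so that reads shared by such neighbours could be split or lost in the authors' counting. Igkv6-15 was 94.5% identical to Igkv6-23, Igkv4-55 was 95.7% identical to Igkv4-68, and Igkv1-117 was 97.2% identical to Igkv1-110.

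V segments were found in nearly every B cell and in a small share of other cells. A V UMI was present in 2234 of 2267 B cells (98.5%, Wilson 95% interval 98.0% to 99.0%), with an Ighv UMI in 84.6%, an Igkv UMI in 93.7% and an Iglv UMI in 28.7%. The 68804 V UMIs of B cells were 99.0% of all V UMIs in the series. Igkv made up 74.8% of them, Ighv 16.0% and Iglv 9.15%. A B cell held a median of 27 V UMIs, and the middle 50% of cells, the range between quartiles, lay between 17 and 39. In T cells, which do not normally express immunoglobulin V segments, 303 of 4833 cells (6.27%) held a V UMI at a median depth of 3230 UMIs, and 272 of these held exactly 1. That share in T cells was 3.56% in pool 1, 10.5% in pool 2 and 4.79% in pool LN. Intervals cover counting error only. A V UMI was also found in 20.6% of the 73 cells named myeloid (5 or more in 11.0%) and in 7 of the 54 cells named NK. The non-B cell highest in V was named myeloid (WT mouse 97, brLN), with 60 V UMIs and 13 UMIs of Cd79a, a B cell receptor subunit.

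The 33 cells that are named B cells and held no V UMI carried Cd3 genes more often than most B cell genes. Their median depth was 8352 UMIs, against 2253.5 UMIs in B cells with a V UMI. A Cd3 UMI (Cd3d, Cd3e or Cd3g, subunits of the T cell receptor complex) was present in 90.9% of them, against 8.01% of B cells with a V UMI. Cd8b1, a subunit of the CD8 coreceptor, was found in 72.7% of the 33 cells. Cd79a, Ms4a1 (CD20) and Ebf1, a B lineage transcription factor, were found in 15.2% each, and Cd74, the invariant chain, in 30.3%, against 98.8% of all B cells. Ighm was found in 75.8% of the 33 cells, at a mean of 2.03 UMIs, against 2.72 UMIs in all B cells. These means were not matched for depth. The 33 cells were the deeper, so relative to total UMIs Ighm was lower in them than the means show. Scaled to total UMIs (CPM), the constant region genes, Ighm among them, summed to 484 CPM in the 33 cells and 5367 CPM in all B cells. Of 110 B cells with 5000 or more UMIs, 28 lacked a V UMI, and all 28 of these held a Cd3 UMI. Of the 33, 10 were in the brLN of Aire-DTR mouse 4. These cells are kept in what follows unless stated.

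The share of V segments in the RNA of B cells did not differ detectably between genotypes or between nodes. In the udLN, V segments held 1.18%, 1.11%, 1.14% and 1.29% of the UMIs of Aire-DTR mice 4, 7, 8 and 36, against 1.11%, 1.43% and 1.27% in WT mice 1, 6 and 97. In the brLN the shares were 1.04%, 1.12%, 1.27% and 1.18% in the same Aire-DTR mice, against 1.16%, 1.44% and 1.24% in the same WT mice. The groups overlapped in both nodes, and WT mouse 6 was the highest in each. The udLN means were 1.18 ± 0.0786% in Aire-DTR mice and 1.27 ± 0.161% in WT mice (SD, n = 4 and 3; difference -0.0909 percentage points, exact permutation test, two-sided p = 0.457, adjusted p = 0.859). The brLN means were 1.15 ± 0.0964% in Aire-DTR mice and 1.28 ± 0.148% in WT mice (difference -0.126 percentage points, exact permutation p = 0.286, adjusted p = 0.859). With 4 against 3 mice the smallest two-sided p this test can give is 0.0571. Within pools the difference in the udLN was -0.294 percentage points in pool 1, 0.0218 in pool 2 and 0.0334 in pool LN, and in the brLN it was -0.172, -0.0573 and -0.0744 in those pools. In the brLN 4 of 4 Aire-DTR mice lay below the WT mouse of their own pool, and in the udLN 2 of 4 did. With arrangements kept within pools (12 in all, smallest two-sided p 0.167), the exact permutation p was 0.167 in the brLN and 0.833 in the udLN. The B cells of WT mouse 6 also had the greatest median depth (2505.5 UMIs, nodes summed) and the smallest share with a Cd3 UMI (1.81%). The part of either in its V share was not tested.

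**Figure D1:**
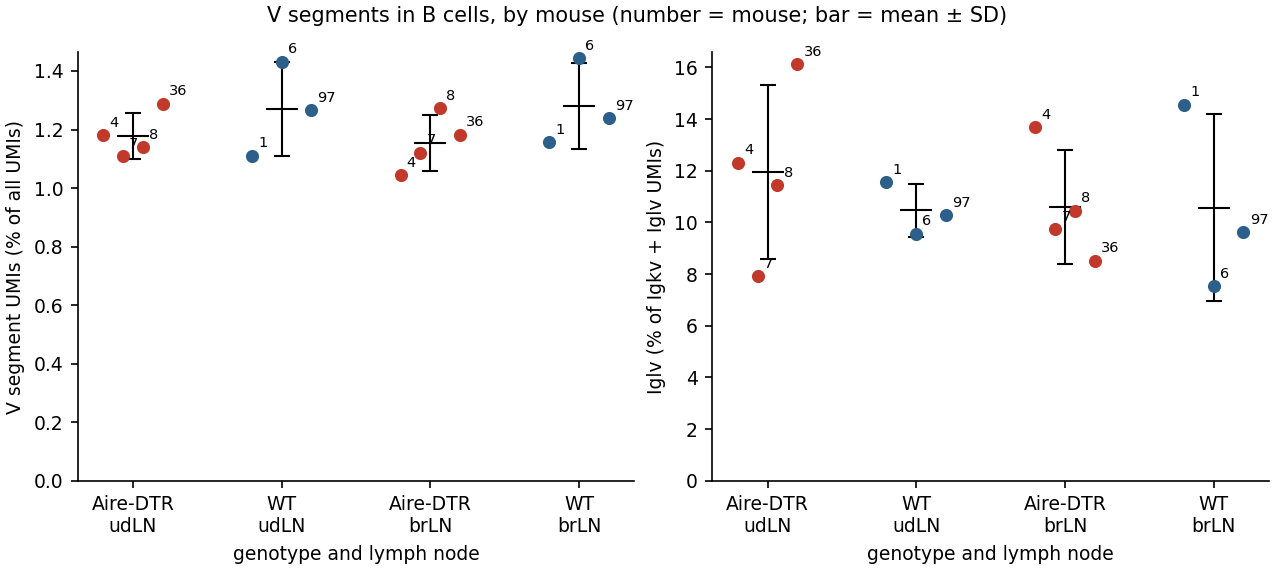
Left, share of all UMIs in B cells that came from V segments (%), by genotype and node; right, Iglv share of light chain V UMIs (%). Each point is 1 mouse, labelled with its number, and bars give the mean ± SD; Aire-DTR and WT points overlap in every pair of columns, with WT mouse 6 highest on the left in both nodes.

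Between nodes, the V share averaged 1.22 ± 0.119% in the udLN and 1.21 ± 0.128% in the brLN (SD, n = 7 mice), and 3 of 7 mice were higher in the udLN (difference 0.00961 percentage points, exact sign-flip permutation test over 128 arrangements, p = 0.859). The direction of this small difference turned when cells without a V UMI were left out (-0.0353), and without mouse 4 (-0.0118) or mouse 36 (-0.00643). At a depth thinned to 1000 UMIs in each cell, 97.9 ± 0.929% of B cells of Aire-DTR mice and 98.2 ± 1.10% of those of WT mice held a V UMI (SD, n = 4 and 3; exact permutation p = 0.8). Left unthinned, Aire-DTR mice ranged from 97.4% to 99.1% and WT mice from 98.0% to 99.4%. The sign of that difference also turned without mouse 4 (0.164) or mouse 6 (0.328). In all, 5 such tests on whole shares were made, and the adjusted p was 0.859 for each.

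Lambda use did not differ detectably between genotypes either. Iglv made up 13.1%, 9.39%, 11.0% and 10.4% of light chain V UMIs in Aire-DTR mice 4, 7, 8 and 36, against 13.4%, 8.34% and 9.67% in WT mice 1, 6 and 97, both nodes summed. The groups overlapped, with means of 11.0 ± 1.57% in Aire-DTR mice and 10.5 ± 2.64% in WT mice (difference 0.513 percentage points, exact permutation p = 0.8, adjusted p = 0.859). Within pools the difference was 2.69 in pool 1, 0.760 in pool 2 and -2.17 percentage points in pool LN. The pooled difference changed sign without mouse 4 (-0.196) or without mouse 6 (-0.556).

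Cells were then classed by light chain, with 5 or more UMIs of a light chain locus taken as its presence. Kappa alone was present in 1925 cells (84.9%), lambda alone in 114 (5.03%), both in 93 (4.10%) and neither in 135 (5.96%). Lambda-only cells made up 5.40 ± 0.894% of the B cells of Aire-DTR mice and 4.70 ± 0.677% of those of WT mice (SD, n = 4 and 3), with overlapping ranges of 4.70% to 6.70% and 3.98% to 5.32%. The constant genes followed the class in part. Igkc averaged 0.456 UMIs in lambda-only cells and 2.88 in kappa-only cells. Iglc1, a lambda constant gene, averaged 1.00 UMI in lambda-only cells and 0.491 in kappa-only cells. Iglc2 and Iglc3, which are also lambda constant genes and near copies of each other, went the other way: Iglc2 averaged 3.25 UMIs in lambda-only cells and 4.10 in kappa-only cells, and Iglc3 averaged 0.895 in lambda-only cells and 2.47 in kappa-only cells. Which transcripts gave the Iglc2 and Iglc3 UMIs of kappa-only cells was not tested.

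The 3 lambda V symbols were spread over cells in different ways. Iglv1 was found in 254 B cells, of which 168 held 5 or more UMIs, and Iglv2 in 59, of which 51 held 5 or more. Iglv3 was found in more cells than any other V symbol, 437 (19.3%), yet 402 of these held 1 to 3 UMIs, none held 4 and 35 held 5 or more. Cells with 1 to 3 Iglv3 UMIs held a median of 24 Igkv UMIs and 91.0% had 5 or more, much as B cells in general. Of all 2267 B cells 2018 had 5 or more Igkv UMIs, and of cells with 1 to 4 Iglv1 UMIs 87.2% did. Cells with 5 or more Iglv3 UMIs held a median of 1 Igkv UMI, and 34.3% of them had 5 or more. Cells with 1 to 3 Iglv3 UMIs occurred in every mouse, at 20.9%, 16.7%, 18.3% and 16.5% of the B cells of Aire-DTR mice 4, 7, 8 and 36, against 13.3%, 19.9% and 19.3% in WT mice 1, 6 and 97. The genotypes overlapped. The median depth of these cells was 2304.5 UMIs, against 2241.5 UMIs in B cells without Iglv3. In T cells Iglv3 was seen in 2 of 4833 cells (0.0414%), fewer than the 18 with Iglv1.

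**Figure D2:**
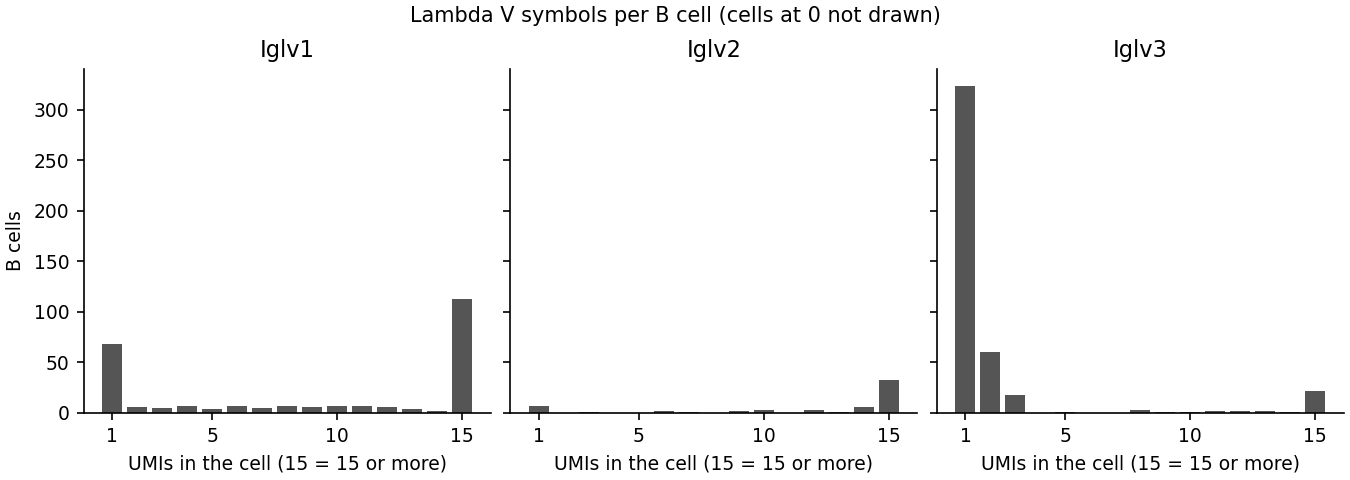
Number of B cells (vertical axis) by UMIs of each lambda V symbol in the cell (horizontal axis, 15 standing for 15 or more; cells at 0 are not drawn). Iglv1 and Iglv2 cells lie mostly at 5 UMIs or more, while 402 of the 437 Iglv3 cells lie at 1 to 3 with none at 4.

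Most B cells were dominated by a single heavy and a single light V symbol. A symbol was called for a cell where the locus had at least 2 UMIs and 75% or more of them fell on that symbol. This gave a call in 1608 of 1718 cells for Ighv (93.6%), in 1804 of 2097 for Igkv (86.0%) and in 247 of 298 for Iglv (82.9%). At 90% of the UMIs in place of 75%, the shares called were 84.8%, 75.2% and 77.2%. A next symbol with 5 or more UMIs occurred in 21 of 998 cells (2.10%) with 5 or more Ighv UMIs, and in 340 of 2018 cells (16.9%) with 5 or more Igkv UMIs. Heavy chain counts per cell were lower (a mean of 4.86 UMIs, against 22.7 for Igkv), which limits what a 5-UMI threshold can show there. The next and the leading kappa symbols had a median identity of 63.4%, and only 5 of the 340 pairs reached 95%. Cells with such a next kappa symbol had a median depth of 2467 UMIs and 8.24% held a Cd3 UMI, against a median depth of 2232.5 UMIs in the other cells. Their share of the cells was 14.5%, 14.5%, 15.5% and 19.4% in Aire-DTR mice 4, 7, 8 and 36, against 21.7%, 19.2% and 13.9% in WT mice 1, 6 and 97, with overlap. Doublets were not called, and their part in these cells was not tested.

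**Figure D3:**
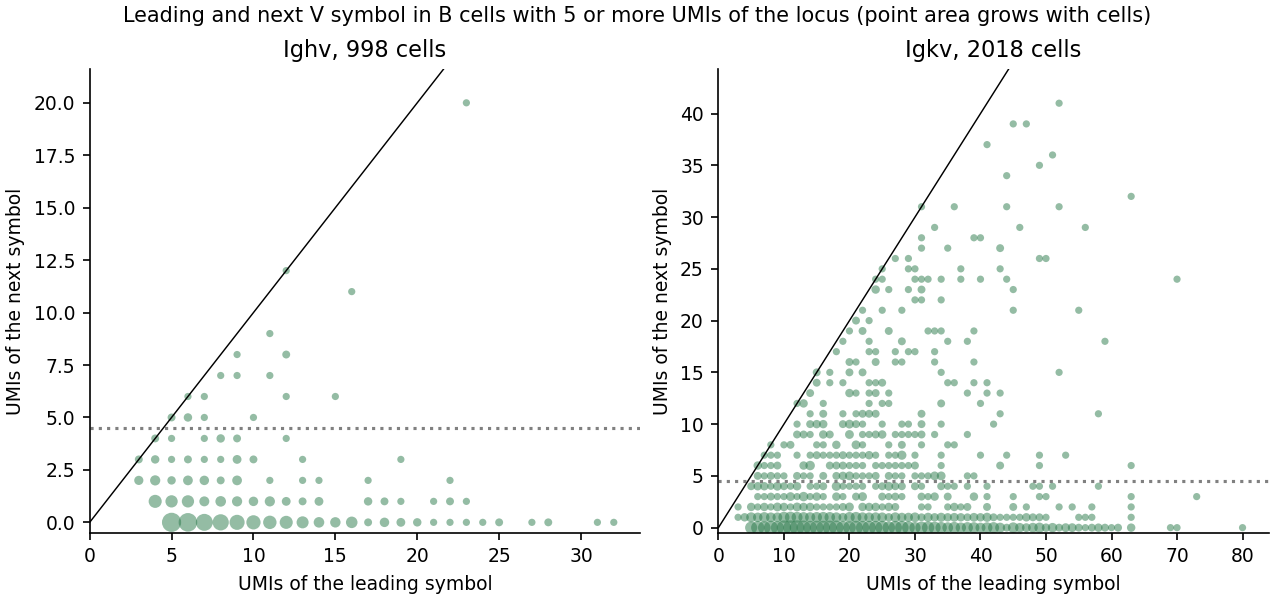
UMIs of the next V symbol (vertical axis) against UMIs of the leading V symbol (horizontal axis) in B cells with 5 or more UMIs of the locus, Ighv left (998 cells) and Igkv right (2018 cells); the diagonal marks equal counts and the dotted line separates 4 from 5 UMIs. The 340 kappa cells above the dotted line reach up to the diagonal, and 21 heavy chain cells lie above it.

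The receptors were diverse. Both a heavy and a light call were made in 1289 cells, which held 936 distinct pairs of symbols. Of these pairs, 705 were seen in a single cell. The most frequent, Ighv1-26 with Igkv10-96 and Ighv1-26 with Igkv12-44, were each seen in 7 cells, spread over 5 and 6 mice. No pair was seen in more than 3 cells of a single mouse.

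All 70 Ighv symbols had a UMI in B cells, 44 of them in all 7 mice, and 16 symbols held 50% of the UMIs. The 8 most used held 32.5% of Ighv UMIs, against 1.43% for each symbol under even use. They were Ighv1-26 (mean share 5.05%), Ighv9-3 (4.74%), Ighv3-6 (4.52%), Ighv1-64 (4.44%), Ighv8-8 (4.17%), Ighv1-15 (3.66%), Ighv1-9 (3.04%) and Ighv1-72 (2.92%). Neighbours in this order differed by less than their spread over mice. Ighv1-26, for example, held 5.69%, 4.56%, 7.15% and 3.62% in Aire-DTR mice 4, 7, 8 and 36, against 4.22%, 3.31% and 6.78% in WT mice 1, 6 and 97, with overlap between the genotypes. By family, the 37 Ighv1 symbols (52.9% of the symbols) held 55.3% of the UMIs, and the 3 Ighv9 symbols (4.29%) held 7.17%. Ighv7-4 was the rarest symbol, with 1 UMI in 1 cell.

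All 80 Igkv symbols had a UMI, 52 of them in all 7 mice, and 13 held 50% of the UMIs. The 8 most used held 36.7%, against 1.25% each under even use, and were Igkv1-117 (6.56%), Igkv10-96 (5.23%), Igkv1-135 (4.80%), Igkv12-44 (4.41%), Igkv6-15 (4.19%), Igkv17-127 (3.91%), Igkv6-23 (3.82%) and Igkv9-120 (3.81%). The 22 Igkv4 symbols made up 27.5% of the symbols and held 7.57% of the UMIs, while the 7 Igkv1 symbols (8.75%) held 16.5% and the 7 Igkv6 symbols (8.75%) held 15.4%. Along the locus, the 27 symbols in the middle of the order from the J segments held 14.9% of Igkv UMIs (12.8% to 17.5% over mice), against 38.3% for the 27 nearest to J and 46.7% for the 26 farthest. Most of the middle symbols were Igkv4 symbols, so that position and family cannot be told apart here. In the heavy locus the 24 symbols nearest to J held 31.3%, the 23 in the middle 34.0% and the 23 farthest 34.6%. Over symbols, the shares of 2 mice had a median Pearson correlation of 0.820 for Igkv (0.665 to 0.880 over 21 pairs of mice) and 0.686 for Ighv (0.549 to 0.851). Pairs of the same genotype had a median of 0.808 for Igkv and pairs of different genotype 0.825. These are correlations over symbols, which share cells and depth within a mouse.

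**Figure D4:**
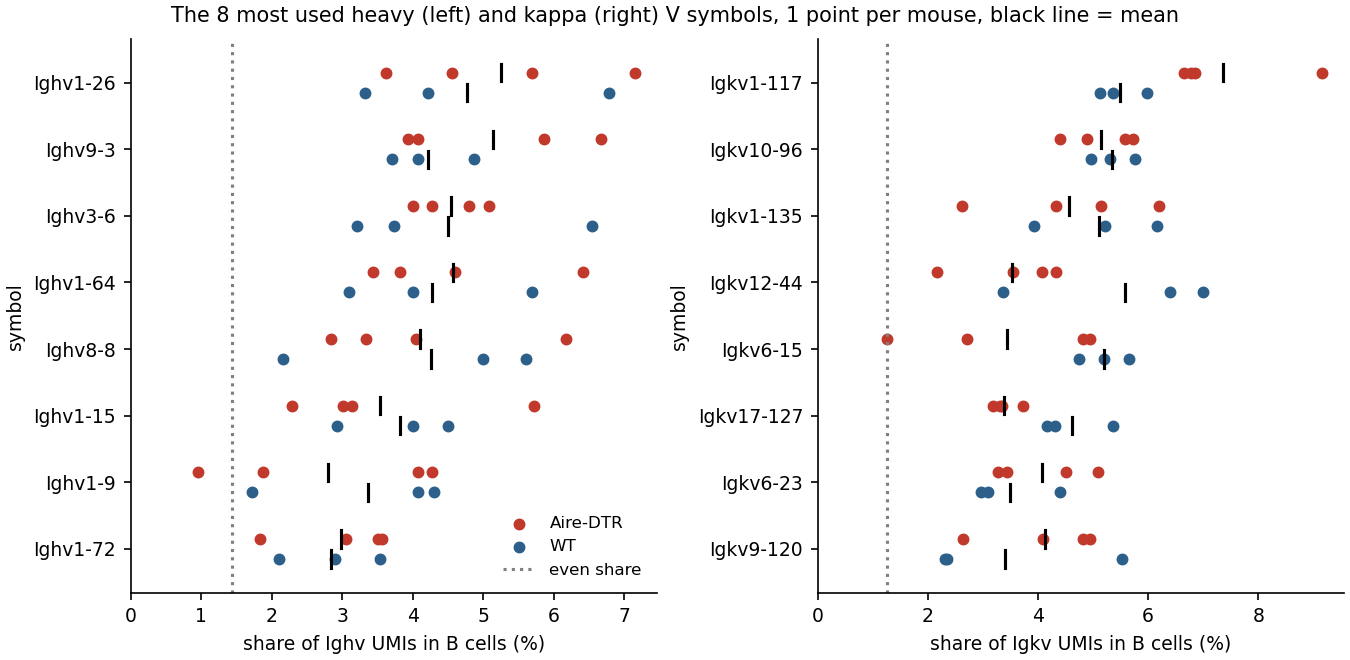
Share of Ighv UMIs (left) and Igkv UMIs (right) in B cells held by each of the 8 most used symbols (%), 1 point per mouse with Aire-DTR above WT; black lines are group means and the dotted line is the share under even use. Igkv1-117 is higher in all 4 Aire-DTR mice (6.65% to 9.16%) than in the 3 WT mice (5.12% to 5.98%), and most other symbols overlap.

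Of the 153 symbols, 12 (7.84%) had shares that did not overlap between genotypes, 7 higher (4.58%) and 5 lower (3.27%) in Aire-DTR mice. Of the 35 arrangements of 4 against 3 mice, a fraction of 0.0571 separates values without ties fully, whatever the genotype. Whether 12 of 153 exceeds that fraction was not tested, so the symbols below are described only. Among the 19 most used symbols (8 Ighv, 8 Igkv and 3 Iglv) 1 was higher and 2 were lower. Igkv1-117 held 6.65%, 6.85%, 9.16% and 6.77% of Igkv UMIs in Aire-DTR mice 4, 7, 8 and 36, against 5.12%, 5.36% and 5.98% in WT mice 1, 6 and 97. Igkv17-127 held 3.34%, 3.72%, 3.30% and 3.18% in the Aire-DTR mice, against 4.31%, 5.36% and 4.17% in the WT mice. Iglv1 held 63.0%, 58.3%, 53.1% and 63.7% of Iglv UMIs in the Aire-DTR mice, against 75.5%, 63.8% and 68.3% in the WT mice, a near contact between mouse 36 and mouse 6.

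Genotype effects on each symbol were tested with edgeR's quasi-likelihood test on UMIs summed per mouse and node over all 5135 genes that passed the filter on low counts, of which 116 were V symbols. The fit held 14 sums of 7 mice without a mouse term, so the 2 nodes of a mouse counted as separate sums. No gene passed an adjusted p of 0.05 in either node (0% called in each). In the udLN, 268 genes (5.22%) had an unadjusted p under 0.05, 28 of them V symbols (24.1% of the 116), and DESeq2 called 3, all V symbols, with 143 at an unadjusted p under 0.05. In the brLN, 171 genes (3.33%) had an unadjusted p under 0.05, 19 of them V symbols (16.4%), and DESeq2 called 0, with 53 at an unadjusted p under 0.05. The median log2 fold change of V symbols was 0.11 in the udLN and -0.14 in the brLN, against 0.02 and 0.00 over all genes. V symbols varied more than other genes between the sums of a mouse and a node. Their median biological coefficient of variation in this fit was 0.590, against 0.104 for the 4848 other genes at the same range of levels. It was 0.0734 for the constant genes Ighm, Ighd, Igkc, Iglc1, Iglc2 and Iglc3. This spread mixes differences between mice with those between the nodes of a mouse. Leaving out mice changed the counts: in the udLN 4 genes were called without mouse 1, 2 without mouse 7, and 1 without mouse 8 or without mouse 36, and in the brLN 1 was called without mouse 8.

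The 3 smallest p-values among V symbols in the brLN rested on few cells. Igkv4-91 reached 38, 34, 9 and 53 UMIs in Aire-DTR mice 4, 7, 8 and 36, against 4, 0 and 0 UMIs in WT mice 1, 6 and 97. These came from 9 Aire-DTR cells and 0 WT cells with 5 or more UMIs (log2 fold change 4.04 ± 0.85 SE, edgeR adjusted p = 0.404). Its genotypes did not overlap. With a mouse left out, its log2 fold change ran between 3.09 (without mouse 36) and 7.24 (without mouse 1). The latter depends on the prior count and bounds nothing, since the remaining WT mice held 0 UMIs. In the udLN the same symbol reached 13, 21, 21 and 0 UMIs in Aire-DTR mice 4, 7, 8 and 36, against 0 in each of the 3 WT mice, and the genotypes overlapped through mouse 36. Igkv8-21 reached 89, 131, 16 and 36 UMIs in the Aire-DTR mice, against 17, 14 and 4 in the WT mice, and the groups overlapped (log2 fold change 1.78 ± 0.37 SE, edgeR adjusted p = 0.404). With each node fitted alone, edgeR called both Igkv4-91 (log2 fold change 4.12, adjusted p = 0.00430) and Igkv8-21 (1.81, adjusted p = 0.0395) in the brLN. Ighv2-2 reached 4, 39, 10 and 96 UMIs in the Aire-DTR mice, against 1, 0 and 19 in the WT mice, again with overlap (log2 fold change 2.41 ± 0.61 SE, edgeR adjusted p = 0.9998). Its log2 fold change was 4.37 without mouse 97, a value that leans on the prior count, since WT mice 1 and 6 held 1 and 0 UMIs.

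In the udLN the same held. Igkv5-48 reached 10, 1, 13 and 15 UMIs in Aire-DTR mice 4, 7, 8 and 36, against 54, 40 and 0 in WT mice 1, 6 and 97, where mouse 97 contributed 20 B cells. The groups overlapped through that mouse (log2 fold change -2.45 ± 0.53 SE, edgeR adjusted p = 0.359). Igkv1-88 reached 0, 0, 7 and 0 UMIs in the Aire-DTR mice, from 1 cell, against 25, 71 and 0 in the WT mice, from 4 cells, with overlap through WT mouse 97 (log2 fold change -4.82 ± 1.10 SE, edgeR adjusted p = 0.359). With a mouse left out, its log2 fold change ran between -8.72 (without mouse 8) and -3.35 (without mouse 6). The former depends on the prior count and bounds nothing, since the remaining Aire-DTR mice held 0 UMIs. Ighv5-17 reached 20, 12, 5 and 5 UMIs in the Aire-DTR mice, against 1, 0 and 0 in the WT mice. The genotypes did not overlap, and 4 Aire-DTR cells and 0 WT cells held 5 or more UMIs. The fitted log2 fold change was 4.02 ± 0.91 SE (edgeR adjusted p = 0.359) and 6.26 without mouse 1, values that depend on the prior count and bound nothing, since the WT mice summed to 1 UMI.

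Between nodes, 2 of 4176 genes passed the test (0.0479%), in a fit with each mouse as a block, and both were kappa V symbols that fell in the udLN. Of the 71 V symbols tested, 19 (26.8%) had an unadjusted p under 0.05, against 205 of all genes (4.91%). Igkv6-15 stood at 108, 170, 60.7 and 146 CPM (counts per library total, after TMM scaling) in the udLN of Aire-DTR mice 4, 7, 8 and 36, and at 339, 41.7 and 0 CPM in the udLN of WT mice 1, 6 and 97. In the brLN it stood at 305, 504, 170 and 535 CPM in those Aire-DTR mice and at 564, 931 and 498 CPM in those WT mice. It was lower in the udLN in 7 of 7 mice (log2 fold change -1.76 ± 0.25 SE, edgeR adjusted p = 0.00391). In cells, 9 of 678 udLN B cells held 5 or more Igkv6-15 UMIs, against 63 of 1589 brLN B cells. The mean over mice was 1.20 ± 0.779% of B cells in the udLN and 3.93 ± 1.93% in the brLN (SD, n = 7). Per mouse, the udLN held 2, 1, 1 and 1 such cells in Aire-DTR mice 4, 7, 8 and 36. It held 3, 1 and 0 in WT mice 1, 6 and 97. The brLN held 6, 10, 1 and 19 in those Aire-DTR mice and 9, 7 and 11 in those WT mice. In mouse 8 the direction rested on 1 cell of 21 UMIs in the udLN and 1 of 40 in the brLN. Cells with 5 or more Igkv6-15 UMIs held a mean of 25.8 of them in the udLN and 30.5 in the brLN (medians 28 and 30). DESeq2 did not call Igkv6-15 (log2 fold change -2.17, adjusted p = 0.125), and without mouse 6 its fold change was -1.46 with an edgeR adjusted p of 0.00152.

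Igkv4-55 followed the same direction at a lower level. It had 12.6, 0, 26.0 and 78.5 CPM in the udLN of Aire-DTR mice 4, 7, 8 and 36 and 14.0, 99.0 and 0 CPM in the udLN of WT mice 1, 6 and 97. In the brLN it had 83.1, 62.1, 158 and 119 CPM in those Aire-DTR mice and 59.7, 171 and 24.9 CPM in those WT mice. By CPM all 7 mice were lower in the udLN (log2 fold change -1.59 ± 0.29 SE, edgeR adjusted p = 0.0409). The difference rested on 6 of 678 udLN B cells and 24 of 1589 brLN B cells with 5 or more UMIs. Over mice such cells made up 0.909 ± 1.19% of B cells in the udLN and 1.67 ± 0.738% in the brLN (SD, n = 7). They held a mean of 9.17 Igkv4-55 UMIs in the udLN and 13.4 in the brLN. The udLN cells numbered 1, 0, 1 and 2 in Aire-DTR mice 4, 7, 8 and 36. In WT mice 1, 6 and 97 they numbered 0, 2 and 0. By share of B cells with 5 or more UMIs, WT mouse 6 alone was higher in the udLN (3.175%) than in the brLN (2.913%). The call was lost without mouse 1, 4, 7, 8 or 97, with edgeR adjusted p between 0.0819 and 0.213, and with both copies of pool LN well 1 kept (edgeR adjusted p = 0.0873). Igkv8-24 had the next smallest p and did not pass (log2 fold change 1.38 ± 0.29 SE, edgeR adjusted p = 0.138). Its WT mice were higher in the udLN (248, 214 and 515 CPM in the udLN of mice 1, 6 and 97, against 79.6, 0 and 197 CPM in the brLN), and so were Aire-DTR mice 4, 7 and 8 (171, 87.7 and 2.89 CPM in the udLN, against 83.1, 45.8 and 0 CPM in the brLN), while Aire-DTR mouse 36 was at 82.0 CPM in the udLN and 86.2 CPM in the brLN. Without mouse 6 or mouse 36 it passed, with edgeR adjusted p of 0.0231 and 0.0144. With pool in place of mouse as the covariate neither Igkv6-15 (edgeR adjusted p = 0.0542) nor Igkv4-55 (0.420) passed. The number of genes called between nodes was 1 without mouse 4, 7 or 97, 5 without mouse 6 and 4 without mouse 36.

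**Figure D5:**
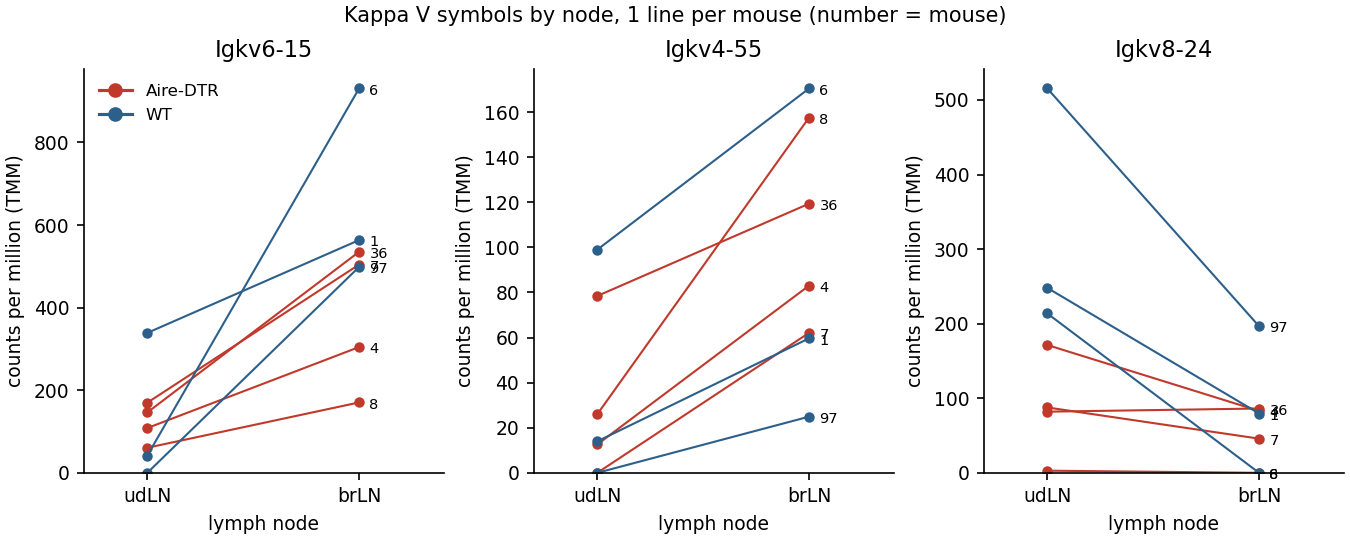
TMM-scaled CPM (vertical axis) of Igkv6-15, Igkv4-55 and Igkv8-24 in B cells of the udLN (left of each panel) and brLN (right), with a line for each mouse. All 7 lines of Igkv6-15 and of Igkv4-55 are lower in the udLN. Each udLN point holds 0 to 3 cells with 5 or more UMIs of Igkv6-15, or 0 to 2 of Igkv4-55. The udLN point of mouse 97 rests on 20 B cells.

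Genes around the V segments did not pass the test in any of the 3 comparisons. Of 13 constant region genes 6 were tested, and their median log2 fold change was 0.07 in the udLN and 0.02 in the brLN for Aire-DTR against WT, and 0.00 between nodes. Of 11 genes for factors that act at V promoters and immunoglobulin enhancers, all 11 were tested; 10 had a positive estimate between nodes, with a median of 0.08, where 50.8% of all genes tested had one. For genotype 5 of the 11 were positive in the udLN and 6 in the brLN. Of 9 partners of the receptor such as Cd79a and Cd79b, all 9 were tested and the medians lay between 0.00 and 0.06. Of 12 plasma cell genes 5 were tested, and of 9 germinal centre genes 0 passed the filter. The T cell list, with UMIs of all 8 genes in cells named B cells, summed to between 330 and 726 CPM in the udLN of Aire-DTR mice and between 38.0 and 882 CPM in the udLN of WT mice. In the brLN it summed to between 182 and 1133 CPM in Aire-DTR mice and between 287 and 1019 CPM in WT mice. Between nodes all 6 of its tested genes had a negative estimate, with a median of -0.32, and none passed. With B cells that held a Cd3 UMI left out, which also dropped the udLN of mouse 97 (under 20 cells), Igkv6-15 was still called between nodes (edgeR adjusted p = 0.000251). Igkv4-55 was not (log2 fold change -1.53, edgeR adjusted p = 0.235). Over all alternatives its log2 fold change ran from -2.02 to -1.39, with adjusted p between 2.46e-11 and 0.420 by edgeR or DESeq2. Igkv5-48 was called between genotypes in the udLN (log2 fold change -2.82, edgeR adjusted p = 0.0164). The dropped udLN of mouse 97 was the WT sum with 0 Igkv5-48 UMIs, through which the genotypes had overlapped.

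Very high V counts were rare. In all, 9 B cells held 100 or more V UMIs, 4 from Aire-DTR mice and 5 from WT mice. The highest, in the brLN of WT mouse 1, held 155 V UMIs, of which 149 were Iglv2 and 4 Ighv1-2, a pseudogene in GENCODE, together with 15 UMIs of Ighm and 15 of Mzb1, a chaperone of immunoglobulin assembly. Jchain, which joins secreted IgM and IgA, was at 0 UMIs in all 9 cells, as were Prdm1, a driver of plasma cell fate, and Sdc1, a plasma cell surface marker. The 11 measured plasma cell genes summed to 1026 CPM in these cells and to 711 CPM in all B cells, and 5 of the 11 had a UMI in them. Of the 48 UMIs of this list in the 9 cells, 28 were Mzb1, and 15 of those lay in the cell with 155 V UMIs. Derl3, Fkbp11 and Eaf2 of that list were at 0 as well. Mzb1 was found in 88.9% of the 9 cells (mean 3.11 UMIs), against 43.8% of all B cells (0.666), Sec11c in 77.8%, against 37.9%, and Xbp1 in 33.3%, against 19.9%. The 9 cells had between 2080 and 8188 UMIs, against a median of 2261 in all B cells, and these shares of cells were not matched for depth. In the other 8 cells the light chain UMIs were divided between symbols, with a second light chain symbol at 21 UMIs or more. The next cell, also from WT mouse 1, held 51 UMIs of Igkv1-110, 36 of Igkv8-19, 15 of Iglv3 and 9 of Iglv1, with Ighv6-3 leading the heavy chain at 9 UMIs. The 4 Aire-DTR cells were led by Igkv17-127 (63 UMIs, with Ighv2-6), Igkv9-129 (47, with Ighv1-5), Igkv1-110 (55, with Ighv1-18) and Igkv3-2 (44, with Ighv1-66). The other 3 WT cells were led by Igkv1-122 (44, with Ighv1-72), Igkv6-32 (70, with Ighv1-64) and Igkv8-19 (52, with Ighv14-4). Leaving out the 9 cells kept both node calls, with edgeR adjusted p of 0.00437 for Igkv6-15 and 0.0336 for Igkv4-55.

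The 4 pseudogene symbols were low. Igkv4-77 was found in 43 B cells with at most 9 UMIs in a cell, Igkv4-73 in 24, Ighv1-2 in 10 and Ighv1-70 in 8. Ighv1-2 was the called heavy symbol of 4 cells, and the other 3 were the called symbol of none.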

How the data were processed

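UMI counts per cell and gene were taken as deposited by the authors. The submitters' processing notes name Seurat, Scanpy 1.7.0, bustools 0.40.0, kallisto 0.46.1 and GRCm38. The counting of UMIs shared by several V genes, the hashtag assignment and the cell filter are not stated there. Mouse, node, genotype and cell type came from the deposited cell table. The copied rows of pool LN well 1 were removed. The members and gene lists were chosen with earlier results of these data known. Each dam gave both nodes, so the node fit took the mouse as a block. The genotype fit had no mouse term, and its standard errors and p-values do not allow for that pairing.

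Counts were summed per mouse and node (20 cells or more) and tested in R 4.3.3 with edgeR 4.0.16 (TMM, filterByExpr, quasi-likelihood test, Benjamini-Hochberg): pool, node and genotype within node for genotype, mouse and node for nodes. An SE printed with an edgeR log2 fold change is its absolute value divided by the square root of the test's F statistic. It was not estimated directly by the fit. DESeq2 1.42.0 was an alternative. On simulated counts over 5135 genes for the udLN, 5135 for the brLN and 4176 for the node contrast, 4-fold changes were recovered in 91%, 94% and 87%, and 2-fold changes in 43%, 66% and 79%, with 3, 8 and 4 calls among unchanged genes. These rates are over all genes and were not measured for V symbols, which vary more. Shares were compared by exact permutation over mice (35 arrangements) or sign flips (128), in Python 3.11.15 with scipy 1.17.1.

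Named symbols were the 8 most used Ighv and Igkv symbols and every Iglv symbol by mean share (cells of 100 or more V UMIs left out), every V symbol past an adjusted p of 0.05 and the 3 smallest p where fewer passed, the leading symbols of cells with 100 or more V UMIs, and the symbols in most and fewest cells. The scaled matrix and its labels were not used.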

Additional observations from a re-analysis of the deposited data

Results flagged for a closer look

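In 2 cases a value lay far from the other mice of their group, among 31 groups of 4 mice examined; chance gives about 1 in 20. The share of B cells with a V UMI, nodes summed, was 97.4% in Aire-DTR mouse 4, below the 98.9%, 99.1% and 98.9% of Aire-DTR mice 7, 8 and 36. Mouse 4 held 11 of the 33 cells without a V UMI. Of those 33 cells 90.9% held a Cd3 UMI, and their median depth was 8352 UMIs. With cells thinned to the fixed depth, the share was 96.52% in mouse 4, against 98.31%, 98.6% and 98.05% in Aire-DTR mice 7, 8 and 36. Mouse 4 is the only dam listed with resorption, and a link between the share and that label was not tested. Igkv1-117 held 9.16% of Igkv UMIs in Aire-DTR mouse 8, above the 6.65%, 6.85% and 6.77% of the other Aire-DTR mice.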

How the results depend on the processing

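The V share was lower in Aire-DTR mice in each node under every alternative run, all of which draw on the same mice. The difference ran from -0.187 to -0.0377 percentage points in the brLN and from -0.170 to -0.00969 in the udLN. This comparison cannot pass an exact permutation test at 4 against 3 mice. With a mouse left out, the smallest differences were those without WT mouse 6 (-0.00969 in the udLN, -0.0435 in the brLN). That mouse had the highest V share in each node. Within pools the udLN difference was -0.294 in pool 1, 0.0218 in pool 2 and 0.0334 in pool LN. The brLN difference was negative in each pool. In the brLN without Cd3-positive cells the genotype difference was -0.151 with an exact permutation p of 0.0571, the smallest the test can give. With arrangements kept within pools, chosen after seeing the data, the exact permutation p was 1 for lambda and for thinned detection. The node difference of the V share became -0.0238 without Cd3-positive cells (where mouse 97 had too few udLN cells), -0.0274 as a mean over cells and -0.0353 without V-negative cells (the last chosen after seeing the data), and ranged from -0.0118 to 0.0334 with a mouse left out, with -0.0118 without mouse 4 and -0.00643 without mouse 36. The lambda difference ranged from -0.556 to 1.99 with a mouse left out, with -0.196 without mouse 4. The thinned detection difference was 0.0284 without Cd3-positive cells, -1.27 at 2 or more V UMIs and -0.729 to 0.328 with a mouse left out, with 0.164 without mouse 4. The cause of these changes was not tested.

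Genes called in the brLN were 43 with no filter on low counts (31 of them V symbols), 4 with each node alone (all V symbols, Igkv4-91 and Igkv8-21 among them) and 0 to 1 with a mouse left out. In the udLN they were 3 by DESeq2, 56 with no filter, 1 without Cd3-positive cells (which also dropped the udLN of mouse 97) and 0 to 4 with a mouse left out. Between nodes they were 1 by DESeq2, 45 with no filter, 1 without Cd3-positive cells, 1 with both copies of pool LN well 1 kept and 1 to 5 with a mouse left out. With no replicate block (pool in place of mouse) 0 genes were called between nodes, with edgeR adjusted p of 0.0542 for Igkv6-15 and 0.420 for Igkv4-55. None of the 9 log2 fold changes followed across the alternatives (Igkv8-21, Igkv4-91 and Ighv2-2 in the brLN, Igkv5-48, Ighv5-17 and Igkv1-88 in the udLN, Igkv6-15, Igkv4-55 and Igkv8-24 between nodes) changed sign. The udLN held the fewer B cells, 476 of Aire-DTR and 202 of WT mice.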
